A study of Mus musculus with 28 samples.

Results

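Lipid-laden macrophages of healing tissue are recognised by a set of genes for lipid handling, clearance of dead cells and lysosomal digestion. 10 of these genes, Gpnmb, Trem2, Spp1, Cd68, Lgals3, Ctsk, Ctss, Apoe, Cd9 and Mertk, were taken by name from the table of raw gene counts. The rule uses names alone, although the genes were chosen with earlier results of these data known. The table has 29068 genes, 18107 of which had enough counts to be tested, and all 10 were among these. RNA was from skin at the wound site of C57BL/6J mice left to heal naturally, with 4 libraries on each of 7 days, labelled Day0, Day3, Day5, Day7, Day10, Day12 and Day14. The labels make Day0 the control group, whereas the methods of the study name day 1 after wounding as the first collection. Elsewhere the study counts the day of injury itself as day 1. Whether Day0 skin was wounded therefore cannot be told from the sources used here. The mice carried the intact Mlkl gene (MLKL+/+), and a 6-mm punch wound of the back reached down to the fascia. The piece collected was the whole wound with its scab and epithelial margins. Nothing in the labels says whether the libraries of a day came from separate mice, so p-values measure only the spread between these libraries, which may be technical.

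As background, TREM2 is a macrophage receptor for lipids and apoptotic cells that signals through the adaptor TYROBP, and MERTK is a receptor tyrosine kinase that takes up dying cells through the bridging proteins GAS6 and PROS1. SPP1 (osteopontin) is a secreted protein that binds integrins and CD44. CD68 is a lysosomal membrane protein, and cathepsins S and K, encoded by Ctss and Ctsk, are lysosomal cysteine proteases. Apolipoprotein E carries lipid, galectin-3 (Lgals3) binds glycans, CD9 is a tetraspanin, and GPNMB is a membrane glycoprotein of lysosomes and melanosomes. Several of them are not restricted to macrophages: keratinocytes express Cd9 and Lgals3, fibroblasts express Ctsk, and melanocytes express Gpnmb.

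Promoter windows of 5 members are shown, those of the 4 genes that rose on Day3 and that of Gpnmb, 1 of the 5 that fell on that day. They are RefSeq sequences of build GRCm38.p6, from 250 bases before to 50 bases after the start, on the strand of the gene. Capitals mark matches, on either strand, to GAGGAAG (a core of the myeloid factor PU.1) or TGACTCA (AP-1), and positions count the start as 1.
Trem2, chr17:48346151-48346450, plus strand: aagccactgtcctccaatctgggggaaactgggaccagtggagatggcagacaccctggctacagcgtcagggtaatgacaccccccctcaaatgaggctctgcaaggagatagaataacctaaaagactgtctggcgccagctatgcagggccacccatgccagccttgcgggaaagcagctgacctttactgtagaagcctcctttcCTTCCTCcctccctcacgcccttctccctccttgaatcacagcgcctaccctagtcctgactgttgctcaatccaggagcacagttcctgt
Spp1, chr5:104434861-104435160, plus strand: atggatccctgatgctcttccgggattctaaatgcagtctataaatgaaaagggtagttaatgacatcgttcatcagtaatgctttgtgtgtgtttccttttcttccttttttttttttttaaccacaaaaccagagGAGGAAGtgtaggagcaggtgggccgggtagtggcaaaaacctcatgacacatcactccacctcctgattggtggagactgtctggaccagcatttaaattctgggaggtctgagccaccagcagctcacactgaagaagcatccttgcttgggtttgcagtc
Ctss, chr3:95526536-95526835, plus strand: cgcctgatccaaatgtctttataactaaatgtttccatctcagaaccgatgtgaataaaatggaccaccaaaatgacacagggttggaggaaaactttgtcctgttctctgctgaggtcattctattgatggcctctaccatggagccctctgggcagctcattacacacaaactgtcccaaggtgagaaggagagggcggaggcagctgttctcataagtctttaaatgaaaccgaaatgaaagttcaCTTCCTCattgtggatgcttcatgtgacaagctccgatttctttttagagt
Cd68, chr11:69666121-69666420, minus strand: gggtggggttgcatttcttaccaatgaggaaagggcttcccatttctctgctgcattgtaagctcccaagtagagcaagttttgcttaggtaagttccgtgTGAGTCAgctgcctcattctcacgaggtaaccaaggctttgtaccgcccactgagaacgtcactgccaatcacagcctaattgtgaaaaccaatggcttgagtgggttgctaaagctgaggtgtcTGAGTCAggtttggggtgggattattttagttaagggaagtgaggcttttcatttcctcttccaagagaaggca
Gpnmb, chr6:49036268-49036567, plus strand: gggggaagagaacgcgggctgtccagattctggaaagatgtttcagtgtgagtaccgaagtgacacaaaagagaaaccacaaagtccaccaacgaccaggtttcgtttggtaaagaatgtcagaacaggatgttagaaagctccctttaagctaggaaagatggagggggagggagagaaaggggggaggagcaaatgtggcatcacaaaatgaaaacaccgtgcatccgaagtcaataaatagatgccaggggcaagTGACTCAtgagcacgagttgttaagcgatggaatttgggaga

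The PU.1 letters were present in windows of 4 members, with first bases at -41 in Trem2, -113 in Spp1, -1 in Ctss and -233 and -59 in Ctsk. Of these genes, Ctsk, whose window is not shown, fell on Day3 and the others rose. Among the 14101 tested genes with a window, 16.2% held the PU.1 letters. The AP-1 letters were found in Cd68, at -149 and -24, and in Gpnmb, at 9, against 5.40% of tested genes. CACGTG, an E-box of TFEB and MITF, was in none of the members' windows, and 10.5% of tested genes had a window that held it. No other letters were searched for these factors, so other sites of theirs are not covered. All of these are matches of letters, and binding was not measured. In the GENCODE annotation of GRCm38, the gene of Ctsk spans chr3:95499256-95509362 and that of Ctss chr3:95526786-95556403, neighbours on the plus strand. The other genes lie at chr6:49036546-49070929 (Gpnmb), chr17:48346401-48354147 (Trem2), chr5:104435118-104441050 (Spp1), chr11:69664213-69666153 (Cd68), chr14:47367751-47386160 (Lgals3), chr7:19696109-19699188 (Apoe), chr6:125460266-125494791 (Cd9) and chr2:128698956-128802894 (Mertk).

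The libraries held 36706513 to 40655764 counts. The Day0 libraries varied most, with a biological coefficient of variation of 26.4%, against 5.70% to 10.8% on the other days. Across all genes, Day0 replicates 2 and 3 correlated at r = 0.990, whereas the other Day0 pairs gave 0.969 to 0.976, and pairs on later days 0.988 to 0.992. Replicates 1 and 4 therefore stood apart from replicates 2 and 3, and less closely resembled each other (r = 0.976). In replicates 1 and 4 the mean log2 CPM (counts scaled to library size) of a list of suprabasal and wound edge keratinocyte genes (Krt1, Krt10, Lor, Krt6a, Krt6b, Krt16 and Sprr1b) was 7.01 and 6.37, against 4.94 and 5.30 in replicates 2 and 3. The basal keratinocyte list was at 9.21 and 9.44 against 8.56 and 8.57, and the skeletal muscle list at 12.02 and 12.06 against 11.18 and 11.20. The fibroblast list was at 10.20 and 9.62 in the former and at 11.18 and 11.15 in the latter. Other lists set replicate 1 alone apart. In replicates 1 to 4 the macrophage list was at 7.00, 6.49, 6.52 and 6.52. The lysosome list was at 7.12, 6.91, 6.92 and 6.90, and the melanocyte list at 3.36, 1.54, 1.47 and 1.94. Neither pair is known to be the better control, so values against Day0 were also computed with replicates 2 and 3 only and with replicates 1 and 4 only, in that order where a pair of values is given. These stand beside the Day3 change of each member and beside counts, and for other values where they ended or turned a call. Comparisons among Day3 to Day14 take no difference from Day0, but the spread of Day0 enters the standard errors of the fit of all 28 libraries. They were therefore repeated in a fit without the Day0 libraries. All 3 of these fits were chosen after seeing the data.

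**Figure D1:**
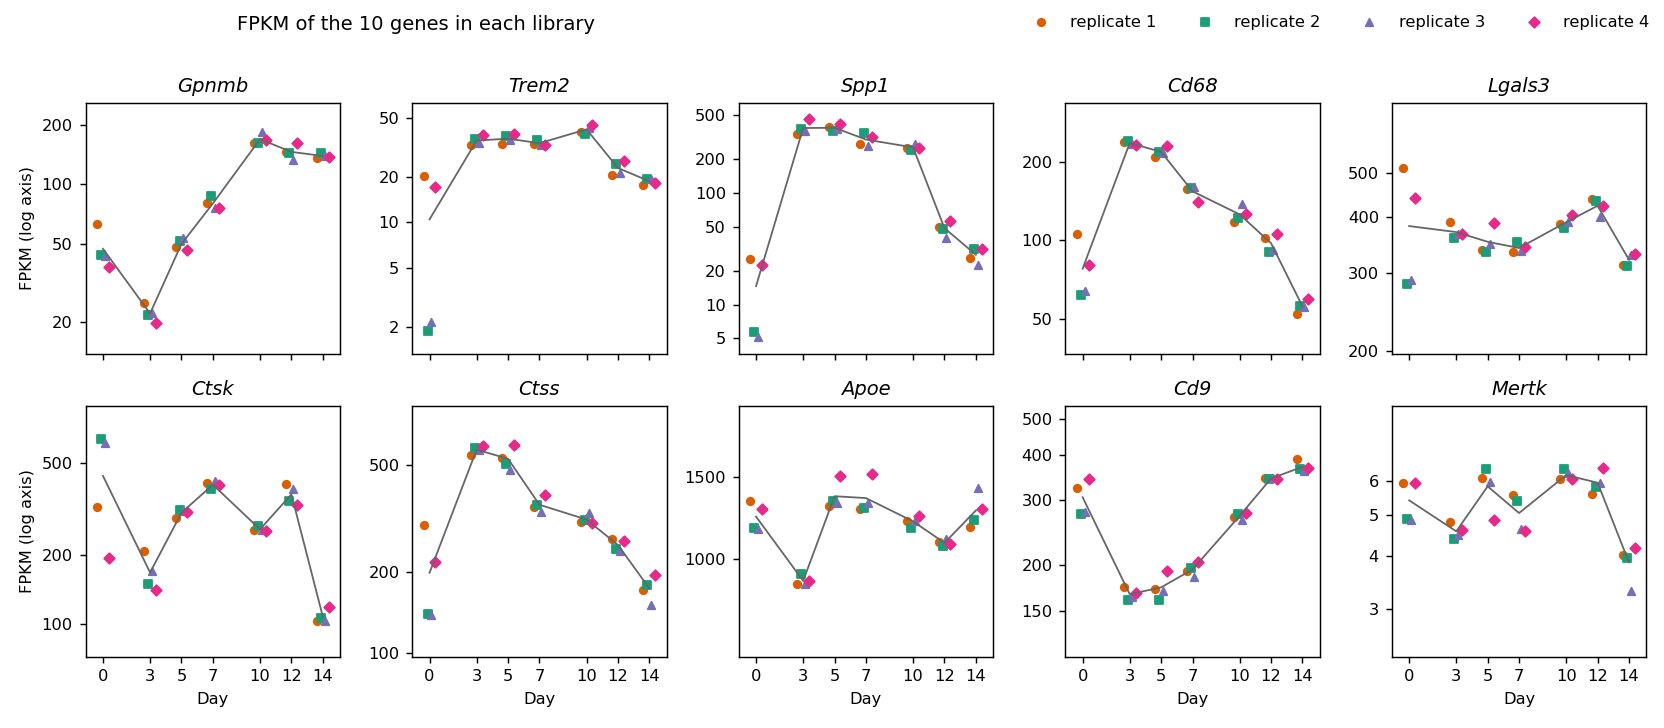
FPKM of the 10 genes (log axis) in each of 28 libraries by day, with 1 marker shape per replicate number and a line through the day means. Day0 replicates 1 and 4 lie above replicates 2 and 3 for Trem2, Spp1, Cd68 and Ctss and below them for Ctsk, while the libraries of later days lie close together.

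Trem2 was high from Day3 to Day10 and lower on Day12 and Day14. On Day0 its level was 20.5, 1.90, 2.18 and 17.3 FPKM (fragments scaled by gene length and library total) in replicates 1 to 4, a 10.7-fold range. On Day3 it was 33.0, 35.9, 33.6 and 38.2 FPKM, above every Day0 library. The day means were 35.2 ± 2.36 (SD, n = 4) on Day3, 41.8 ± 2.62 on Day10 and 18.8 ± 0.927 on Day14. Day14 was below Day3 in every library (log2 fold change -1.08, SE 0.37, adjusted p = 0.0119, edgeR quasi-likelihood test, adjusted by Benjamini-Hochberg across all genes tested, as are all adjusted p-values here). Without the Day0 libraries in the fit, the standard error fell to 0.072 (adjusted p = 1.76e-14). The rise against Day0, as log2 fold change, was 1.81 on Day3 (adjusted p = 0.000173), but 4.17 with Day0 replicates 2 and 3 only and 1.00 with replicates 1 and 4 only, and it passed the test each time. On Day14 the 3 values were 0.72 (adjusted p = 0.103), 3.09 (adjusted p = 3.23e-20) and -0.06 (adjusted p = 0.603), so that whether Trem2 was still raised depended on the Day0 libraries used.

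Mertk, the receptor of dying cells, was the least abundant member and changed little. Its day means ran from 3.86 FPKM on Day14 to 6.21 FPKM on Day10. Among wound days it rose from Day3 to Day5 (log2 fold change 0.34, adjusted p = 0.00346), fell to Day7 (-0.25, adjusted p = 0.0222), rose to Day10 (0.25, adjusted p = 0.0229) and fell from Day12 to Day14 (-0.61, SE 0.084, adjusted p = 1.32e-06). The calls for Day7 against Day5, where the libraries overlapped, and for Day10 against Day7 each held in 4 of 8 fits with 1 library left out, and the other calls in all 8. Day14 libraries, at 4.02, 3.96, 3.30 and 4.17 FPKM, were all below those of Day12. The Day3 difference from Day0 of -0.19 was at the threshold (adjusted p = 0.0496) and depended on the Day0 pair, with -0.033 (adjusted p = 0.766) for replicates 2 and 3 and -0.28 (adjusted p = 0.00817) for replicates 1 and 4. Mertk overlaps the snoRNA gene Gm23172 on the same strand and Gm14011 on the opposite strand.

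Spp1 had the widest range of the members. Day0 libraries were at 25.4, 5.66, 5.19 and 22.5 FPKM and Day3 libraries at 339, 374, 359 and 459 FPKM. It stayed high to Day10, at 256 ± 12.3 FPKM (SD, n = 4), then dropped to 48.5 ± 7.01 FPKM on Day12. Day14 libraries were at 26.5, 31.4, 22.7 and 31.6 FPKM. The step from Day10 to Day12 had a log2 fold change of -2.49 (adjusted p = 1.63e-07), and Day14 against Day3 one of -3.96 (adjusted p = 1.63e-11). Against Day0 the Day3 change was 4.76 (SE 0.34, adjusted p = 1e-12), 6.20 with replicates 2 and 3 only and 4.10 with replicates 1 and 4 only. On Day14 it was 0.80 with all 4, 2.24 with replicates 2 and 3 and 0.17 with replicates 1 and 4, where it did not pass (adjusted p = 0.302). Spp1 overlaps Gm42793 on the same strand, and how the counting treated reads in the overlap is not given in the sources used here.

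Cd68 and Ctss were highest on Day3 and declined on later days. Cd68 was at 239, 241, 234 and 233 FPKM on Day3 and at 52.4, 56.2, 55.4 and 59.6 FPKM on Day14, with no overlap (log2 fold change -2.27, SE 0.11, adjusted p = 3.41e-16). Its Day0 libraries were at 106, 61.6, 63.8 and 80.5 FPKM. The Day3 rise was 1.66 (adjusted p = 2.74e-13), 1.98 with Day0 replicates 2 and 3 only and 1.45 with replicates 1 and 4 only. Cd68 was below Day0 on Day14 in each of these fits, at -0.61, -0.29 and -0.79. Ctss went from 548, 581, 569 and 590.5 FPKM on Day3 to 172, 179, 151 and 195 FPKM on Day14 (log2 fold change -1.90, SE 0.15, adjusted p = 9.33e-12). Its Day3 rise of 1.58 was 2.10 and 1.24 in the respective pairs. On Day14 the direction of Ctss turned, from 0.20 (adjusted p = 0.0274) against replicates 2 and 3 to -0.63 (adjusted p = 2.58e-06) against replicates 1 and 4. Ctss overlaps the pseudogene Hmgb1-ps5 on the same strand.

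Ctsk, a collagen-degrading protease, was lowest on Day14 and rose and fell in between. Levels were 167 ± 30.0 FPKM (SD, n = 4) on Day3, 403 ± 13.3 on Day7, 257 ± 5.83 on Day10, 366 ± 37.1 on Day12 and 107 ± 7.42 on Day14. The rise from Day3 to Day5 (0.85, adjusted p = 0.00259) and the falls from Day7 to Day10 (-0.70, adjusted p = 0.00906) and from Day12 to Day14 (-1.75, adjusted p = 1.32e-07) passed the test. The step from Day10 to Day12 was 0.42 and did not pass (adjusted p = 0.104), although the libraries did not overlap and it passed in the fit without the Day0 libraries (adjusted p = 5.26e-05). On Day0, libraries were at 323, 634, 609 and 193 FPKM, and the comparison with them depended on the pair: on Day7 it was -0.13 with all 4 (adjusted p = 0.619), -0.62 with replicates 2 and 3 (adjusted p = 7.84e-07) and 0.63 with replicates 1 and 4 (adjusted p = 0.000261). Ctsk was lower than Day0 in all 3 fits on Day3 (-1.34, -1.83 and -0.53) and on Day14 (-2.16, -2.65 and -1.32). The 8 genes of the fibroblast list went the same way as Ctsk on some days and not on others. On Day3, 5 were lower and 2 higher, and on Day14 all 8 were lower. On Day10, when Ctsk was lower than Day0 (-0.83, adjusted p = 0.00125), 5 of them were higher and 1 lower, and on Day7, 4 were higher. Both of these counts rested on the Day0 libraries, with 3 higher and 3 lower on either day for replicates 2 and 3 only, and 7 and 8 higher on Day10 and Day7 for replicates 1 and 4 only. With Day0 replicates 2 and 3 only, 6 were lower and 2 higher on Day3 and 8 lower on Day14, whereas with replicates 1 and 4 only 2 were lower and 5 higher on Day3 and 2 lower on Day14. The Ctsk call on Day10 was also lost with replicates 1 and 4 only (-0.06, adjusted p = 0.732). The part of fibroblasts in the Ctsk values was not tested.

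Apoe was the most abundant member. It was lowest on Day3, at 884, 930.2, 883 and 897 FPKM, and highest on Day5, at 1301, 1332, 1320.0 and 1503 FPKM (log2 fold change 0.59, SE 0.07, adjusted p = 4.07e-07). Its Day3 fall against Day0 passed in each fit (-0.40, -0.31 and -0.44), and its range over the day means was 1.52-fold.

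Cd9 fell on Day3 and recovered. Libraries were at 325, 276, 279 and 344 FPKM on Day0, 173, 161, 163 and 168 on Day3 and 389, 365, 361 and 367 on Day14. The Day3 fall of -0.82 (adjusted p = 5.5e-12) was -0.68 and -0.91 in the respective pairs, and Day14 against Day3 gave 0.97 (adjusted p = 1.25e-13). The basal keratinocyte list went the same way in part, with 5 of 7 genes lower on Day3 against Day0 (median -0.77), and 4 higher and 1 lower on Day14 against Day3 (median 0.52). With Day0 replicates 2 and 3 only, 4 were lower and 2 higher on Day3, and with replicates 1 and 4 only 5 were lower. Of the 7 suprabasal and wound edge genes, 4 were higher and 3 lower on Day3, with all 4 Day0 libraries and with either pair. The part of keratinocytes in Cd9 or Lgals3 was not tested. Cd9 overlaps Gm28809 and Gm26728 on the opposite strand, and the strand setting of the counting is not given in the sources used here.

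Lgals3 was nearly level among wound days, with day means from 320.5 FPKM on Day14 to 423 FPKM on Day12. It fell from Day12 to Day14 (log2 fold change -0.38, SE 0.12, adjusted p = 0.00906). Day0 libraries were at 513, 282, 289 and 439.9 FPKM, replicates 1 and 4 above and replicates 2 and 3 below all Day3 libraries (358 to 389 FPKM). The Day3 difference of 0.01 (adjusted p = 0.945) was accordingly 0.43 (adjusted p = 4.55e-07) against replicates 2 and 3 and -0.27 (adjusted p = 0.00131) against replicates 1 and 4, called in opposite directions.

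Gpnmb fell on Day3 and then rose to its highest level on Day10. It was at 63.1, 43.7, 43.3 and 38.1 FPKM on Day0, 24.8, 21.6, 22.2 and 19.6 on Day3, 162, 163, 186 and 169 on Day10 and 136, 145, 139 and 138 on Day14. Day3 lay below and Day10 and Day14 above all Day0 libraries. The log2 fold changes against Day0 were -1.04 on Day3 (adjusted p = 1.54e-09), 1.80 on Day10 (adjusted p = 1.21e-13) and 1.44 on Day14 (adjusted p = 3.97e-12). On Day3 it was -0.92 with Day0 replicates 2 and 3 only and -1.10 with replicates 1 and 4 only. On Day10 it was 1.92 with Day0 replicates 2 and 3 only and 1.69 with replicates 1 and 4 only, and on Day14 1.56 and 1.41. The 6 genes of the melanocyte list were, like Gpnmb, lower on Day3 (all 6, median -3.46) and higher on Day14 (all 6, median 4.20), but they parted from it on Day5 and Day7. Gpnmb was at 1.80 on Day10 and 1.49 on Day12. Of the list, 5 genes were higher and 0 lower on Day10 (median 1.72), and all 6 were higher on Day12 (median 3.07). With either Day0 pair, 5 and 6 were lower on Day3 and on Day5, and all 6 were higher on Day14. On Day5 all 6 were lower (median -1.73) while Gpnmb was at 0.12 (adjusted p = 0.325), a value that depended on the Day0 pair, with 0.24 (adjusted p = 0.0129) for replicates 2 and 3 and 0.023 (adjusted p = 0.883) for replicates 1 and 4. On Day7 the median of the list was -0.20 while Gpnmb rose by 0.76 (adjusted p = 7.14e-07), and the list's calls turned with the Day0 pair, from 4 higher to 3 lower. From Day10 to Day14 the mean log2 CPM of the list went from 3.97 to 6.46, while the mean of Gpnmb went from 169.9 to 139.5 FPKM. Their mean log2 CPM ranged from 1.47 to 3.36 on Day0, -1.09 to -0.52 on Day3 and 6.32 to 6.60 on Day14. Pmel, a melanosome protein, was at 0.18 to 0.25 FPKM on Day3 and 57.8 to 71.0 FPKM on Day14. The macrophage list went the other way, from 7.81 to 7.85 on Day3 to 5.05 to 5.19 on Day14. The part of melanocytes or macrophages in Gpnmb was not tested, and in whole tissue the number of cells and the RNA per cell cannot be told apart for any of these genes.

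**Figure D2:**
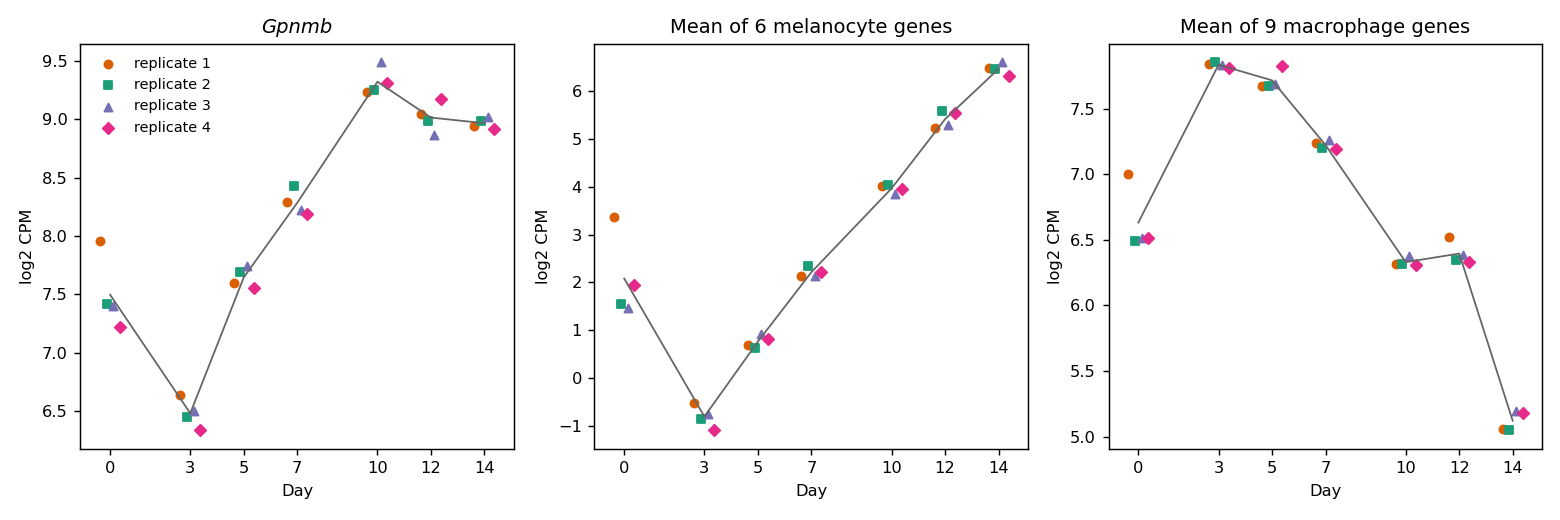
Log2 CPM of Gpnmb, mean log2 CPM of 6 melanocyte genes and mean log2 CPM of 9 macrophage genes in each library by day, with a line through the day means. Gpnmb and the melanocyte genes are lowest on Day3, while the macrophage genes are highest on Day3 and lowest on Day14.

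Over the wound itself, all 10 members differed between Day14 and Day3, 3 higher (Gpnmb, Cd9 and Apoe) and 7 lower. Of all genes tested, 34.2% were higher and 32.8% lower in that comparison. All 10 calls held with each library left out in turn and without the Day0 libraries in the fit. The members' median was -0.62 and that of all genes 0.036.

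**Figure D3:**
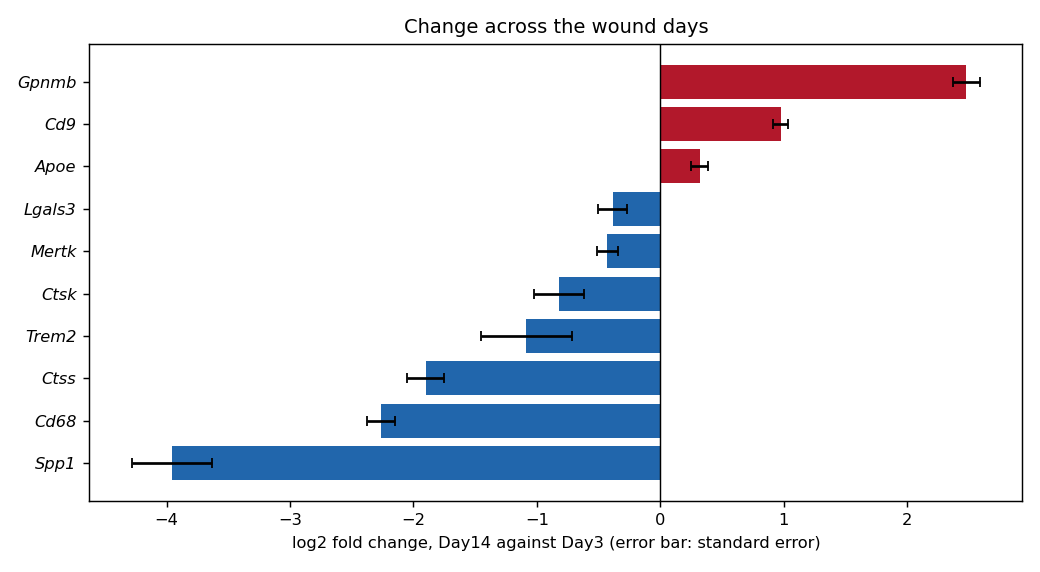
Log2 fold change of each member on Day14 against Day3, with the standard error as error bar. Spp1 has the longest bar, at -3.96, and Gpnmb the longest positive one, at 2.48.

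Between neighbouring days, 4 to 7 members were called. Day5 against Day3 had 4 higher (Gpnmb, Ctsk, Apoe and Mertk; 12.9% of all genes) and 0 lower (11.4%). Day7 against Day5 had 1 higher (13.9%) and 3 lower (14.6%), and Day10 against Day7 had 3 higher (14.3%) and 3 lower (18.0%). The later steps were mostly downward, with 1 higher (18.7%) and 6 lower (20.7%) on Day12 against Day10 and 1 higher (19.9%) and 6 lower (25.3%) on Day14 against Day12. The gene that rose was Cd9 in the former and Apoe in the latter. The total of 7 for Day12 against Day10 was 4 to 6 with 1 library left out, beside 34.2% to 35.7% of all genes called, and Trem2 lost its call in 8 of 8 fits, Ctss in 6 and Gpnmb in 2. It was 4 under limma with 50.2% of all genes called, 3 without a filter (25.9%), and 4 without composition normalization (41.8%), against 39.4% of all genes in the fit reported. Without the Day0 libraries the members called for these 5 steps numbered 4, 6, 10, 8 and 9, beside 31.8%, 35.4%, 39.4%, 45.7% and 51.6% of all genes called, and these shares too were above those of the fit of all libraries. Without the Day0 libraries, Trem2 passed for Day12 against Day10 (-0.95, adjusted p = 1.29e-12).

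The counts against Day0 are given beside the share of all genes called in the same direction. On Day3, 4 members were higher (Trem2, Spp1, Cd68 and Ctss; 31.8% of all genes) and 5 lower (Gpnmb, Ctsk, Apoe, Cd9 and Mertk; 34.8%). On Day5 there were 5 higher (29.0%) and 2 lower (30.6%), on Day7 5 higher (25.6%) and 1 lower (24.8%), and on Day10 5 higher (23.5%) and 2 lower (26.9%). On Day12 there were 3 higher (21.7%) and 1 lower (25.6%), and on Day14 3 higher (28.2%) and 4 lower (34.5%). The Day12 total was 3 to 7 with 1 library left out, beside 42.4% to 46.5% of all genes called. Other settings that moved the Day12 and Day14 totals are given at the end. From Day3 to Day14 the totals of members called were 9, 10, 9, 8, 9 and 8 with Day0 replicates 2 and 3 only, beside 64.2%, 57.5%, 47.9%, 49.4%, 47.1% and 61.6% of all genes called in either direction. With replicates 1 and 4 only they were 10, 6, 9, 6, 5 and 6, beside 61.6%, 56.8%, 49.6%, 45.8%, 43.5% and 56.1%.

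By the criteria in the methods of the study, where an unadjusted P under 0.05 and a log2 fold change beyond 1.5, up or down, are required, 4 members passed on Day3, all higher (6.50% of all genes). There were 3 on Day5 (5.61%), 2 on Day7 (4.66%), 3 on Day10 (4.33%) and 1 on Day12 (3.89%), all higher, and 1 on Day14, Ctsk, which was lower (8.83%). These counts rest on the Day0 libraries. With replicates 2 and 3 only, 4, 4, 2, 3, 3 and 3 members were higher from Day3 to Day14, beside 7.77%, 6.88%, 6.27%, 5.99%, 5.72% and 6.87% of all genes, and Ctsk was lower on Day3 (12.4%) and Day14 (9.45%). With replicates 1 and 4 only, 1, 1, 1, 2, 0 and 0 were higher, beside 7.41%, 6.51%, 5.61%, 4.82%, 4.06% and 5.50%, and 0 were lower on each day (3.90% to 11.5%).

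**Figure D4:**
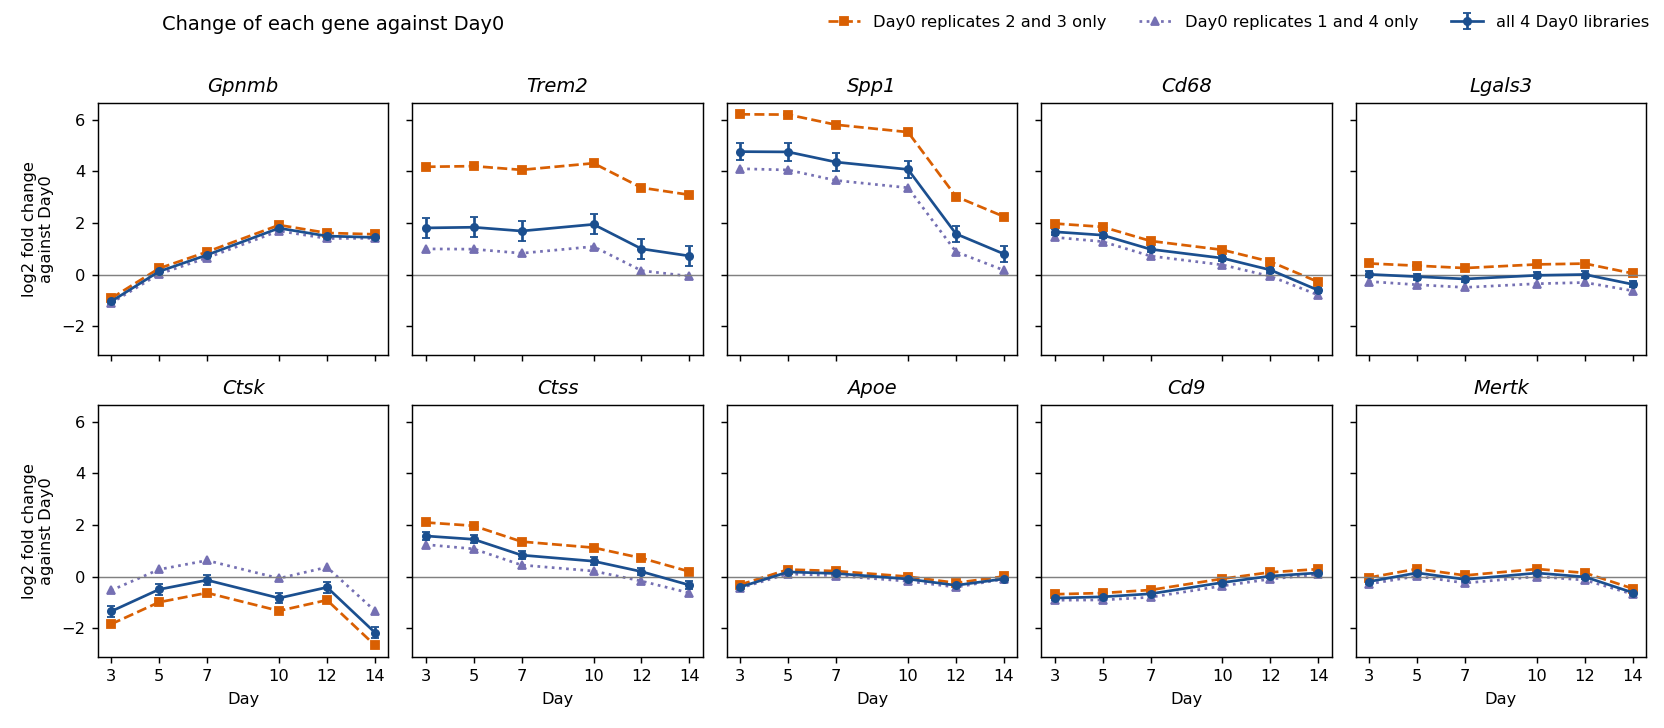
Log2 fold change of each member against Day0 by day, with all 4 Day0 libraries (circles, error bar: standard error), with Day0 replicates 2 and 3 only (squares) and with replicates 1 and 4 only (triangles). The lines lie apart for Trem2, Spp1, Ctsk, Ctss and Lgals3 and close together for Gpnmb and Apoe.

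The members were also set against 9 macrophage genes that are not members (among them Adgre1, Csf1r and C1qa), by scaling each library to their mean. All 9 rose on Day3 (median 0.97) and 8 fell on Day14 (median -1.77), and these counts were the same with either Day0 pair. They did not all move together on later days. With all 4 Day0 libraries, 2 were higher and 7 lower on Day10, 1 higher and 6 lower on Day12, and 1 was higher on Day14. This scaling shifted the median of all genes to -1.25 on Day3, -1.12 on Day5, -0.60 on Day7, 0.27 on Day10, 0.19 on Day12 and 1.44 on Day14, and each value below is to be read against that shift. With Day0 replicates 2 and 3 only, the median was -1.34 on Day3, 0.18 on Day10 and 1.34 on Day14. With replicates 1 and 4 only, it was -1.11, 0.39 and 1.58.

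Relative to these genes, Spp1 was higher on every day, by 3.63 on Day3, 4.44 on Day10 and 2.38 on Day14, where it was 3.63 and 1.73 with either Day0 pair. Cd68 and Ctss rose by 0.48 and 0.42 on Day3. The rise of Ctss was 0.77 with Day0 replicates 2 and 3 only and was lost with replicates 1 and 4 only (0.14, adjusted p = 0.141), whereas that of Cd68 passed with either pair (0.65 and 0.33). On Day14, with all 4 Day0 libraries, Cd68 and Ctss were at 0.93 and 1.23, both under the all-gene median. Trem2 was at 0.70 on Day3 (adjusted p = 0.0589) and rose by 2.34 on Day10 and 2.32 on Day14. On Day14 Trem2 passed with either Day0 pair (4.47 and 1.51), but the latter value was below the all-gene median of its fit (1.58). Its Day3 value turned to -0.12 with Day0 replicates 1 and 4 only and was 2.84 with replicates 2 and 3 only. Gpnmb went from -2.22 on Day3 to 2.98 on Day14. Mertk and Lgals3 stayed near the all-gene median on Day3, at -1.39 and -1.17.

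With this scaling, 3 members were called higher (5.50% of all genes) and 6 lower (84.6%) on Day3, 4 higher (5.03%) and 6 lower (83.3%) on Day5, and 5 higher (7.00%) and 5 lower (68.4%) on Day7. On Day10 there were 9 called in either direction (58.2%), of which 8 were higher (45.1%) and 1 was lower, on Day12 7 higher (35.3%) and 0 lower (11.1%), and on Day14 9 higher (81.9%) and 1 lower (4.27%). The lower gene on Day10 and Day14 was Ctsk. With Day0 replicates 1 and 4 only, Ctsk was called higher on both days (0.41 and 0.28), beside all-gene medians of 0.39 and 1.58 in that fit. The totals from Day3 to Day14 were 10, 10, 9, 9, 8 and 10 with Day0 replicates 2 and 3 only, beside 88.0%, 86.3%, 77.6%, 52.8%, 45.2% and 82.7% of all genes called. With replicates 1 and 4 only they were 8, 8, 7, 8, 5 and 10, beside 84.5%, 81.2%, 63.7%, 59.5%, 51.7% and 85.0%.

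**Figure D5:**
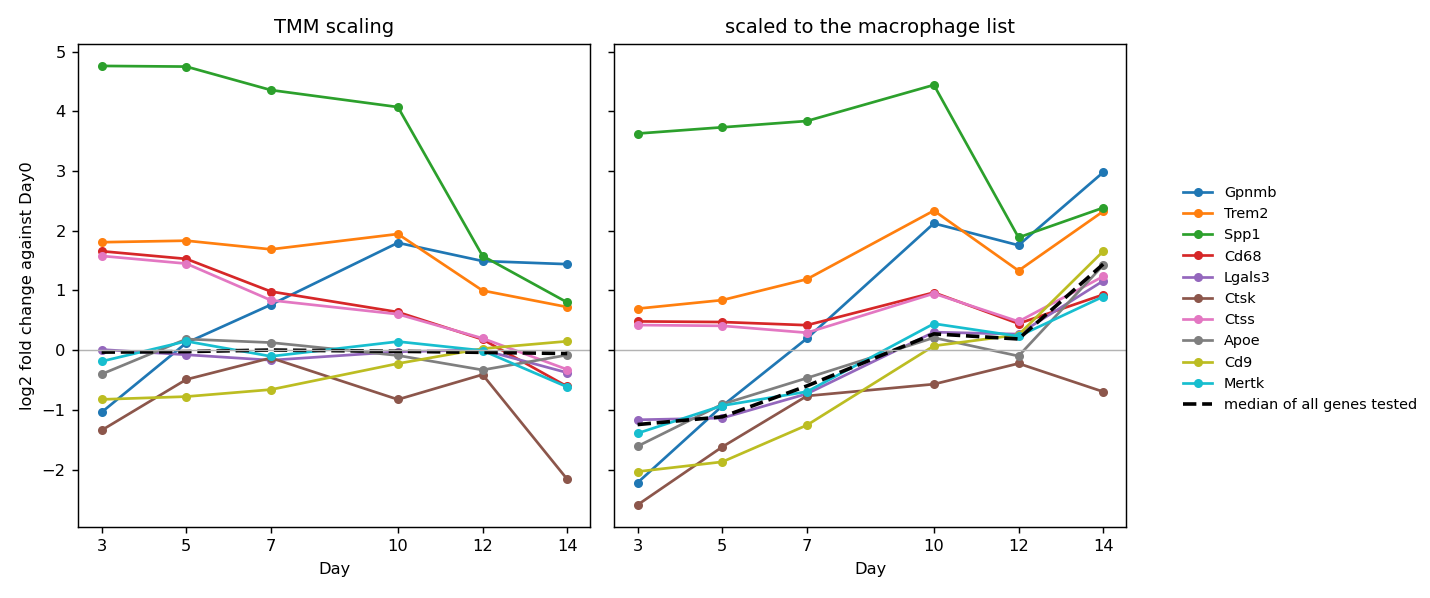
Log2 fold change of the members against Day0 by day, with TMM scaling (left) and with libraries scaled to 9 macrophage genes (right); the dashed line is the median of all genes tested. That median runs from -1.25 on Day3 to 1.44 on Day14 on the right and stays near 0 on the left.

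Other genes of the pathways were counted in lists, and these counts are to be read against the 31.8% of all genes higher and 34.8% lower on Day3 and the 28.2% higher and 34.5% lower on Day14. All 12 genes of TREM2 signalling rose on Day3 (median 1.38), and 11 of 12 were lower on Day14 (median -1.15). With either Day0 pair, 12 and 11 rose on Day3 and 10 and 10 were lower on Day14. Tyrobp, the adaptor of TREM2, rose by 1.61 on Day3 (adjusted p = 1.03e-16), was at -0.09 on Day10 (adjusted p = 0.32) and had fallen to -1.27 on Day14 (adjusted p = 4.46e-14). Ms4a6d, a membrane protein of myeloid cells, had the largest rise of the list on Day3, at 2.99, and Adam10, a sheddase that cleaves TREM2, the smallest, at 0.45. Trem2 on Day10 was at its highest mean level while Tyrobp did not pass the test.

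Of 37 lysosomal genes, 31 rose and 3 fell on Day3 (median 0.58), and 6 rose and 20 fell on Day14. On Day3, 31 and 30 rose with either Day0 pair, and 20 and 19 fell on Day14. Gla, alpha-galactosidase A, was highest on Day3 at 2.00. Tfeb, a transcription factor of lysosomal genes, was lower on Day3, at -0.75 (adjusted p = 1.08e-06). Ctsh, another cathepsin, was lowest on Day14, at -1.57, and Atp6v0d2, a proton pump subunit of osteoclasts and macrophages, highest, at 2.69.

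Of 25 lipid-handling genes, 18 rose and 4 fell on Day3, and 7 rose and 13 fell on Day14. Either Day0 pair gave 18 that rose on Day3, and 11 and 12 that fell on Day14. Msr1, a scavenger receptor, led on Day3 at 2.92, and Vldlr, a lipoprotein receptor, was lowest at -0.92. Abca1, a cholesterol exporter, rose by 0.95 and Nr1h3, which encodes the oxysterol receptor LXR-alpha, by 0.82. On Day14, Lpl, lipoprotein lipase, was highest at 1.31 and Olr1, a receptor of oxidised lipoprotein, lowest at -1.68, a call lost with Day0 replicates 1 and 4 only (-0.96, adjusted p = 0.0996).

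Of 20 efferocytosis genes, 10 rose and 7 fell on Day3, and 1 rose and 12 fell on Day14. With either Day0 pair, 11 and 11 rose on Day3, and 3 and 3 rose and 13 and 11 fell on Day14. The MERTK ligand Gas6 was lower on Day3 (-0.26, adjusted p = 0.017), though not with Day0 replicates 1 and 4 only (0.12, adjusted p = 0.0843), and on Day14 (-1.36), and the related receptor Axl was lower on both days (-0.61 and -0.62). Pros1, the other ligand, was higher on Day3 (0.35) and lower on Day14 (-1.07). Mfge8, a bridging protein, was the one that rose on Day14 with all 4 Day0 libraries, by 0.82.

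Of 10 SPP1 receptor genes, 7 rose and 2 fell on Day3, and 1 rose and 6 fell on Day14. With either Day0 pair, 7 and 8 rose on Day3, and 3 and 1 rose and 4 and 6 fell on Day14. Cd44 rose by 1.49 on Day3 and 0.36 on Day14, the latter lost with Day0 replicates 1 and 4 only (0.074, adjusted p = 0.37). Its Day0 libraries, at 39.5, 19.5, 19.8 and 30.7 FPKM, were divided as those of Spp1 were. Itga5 rose by 1.77 and Itga8 was at -2.75 on Day3, and Itgav rose by 0.27.

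Of 13 tested osteoclast partners of Ctsk, 8 rose and 2 fell on Day3, and 5 rose and 3 fell on Day14. Against the Day0 pairs, 9 of 14 tested and 7 of 13 rose on Day3, and 5 and 6 on Day14. Acp5, an acid phosphatase of osteoclasts and macrophages, rose on Day3 and Day14, by 0.62 and 0.55, where Ctsk was lower. Of 8 cystatins and other cathepsin inhibitors, 6 rose and 2 fell on Day3, led by Serpinb3a at 5.91, and 4 rose and 3 fell on Day14. With either Day0 pair the Day3 counts were unaltered, and 5 and 3 rose on Day14. Cst3, which encodes cystatin C, was lower on Day3 and Day14, at -0.25 and -0.98.

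Of 8 tetraspanins other than Cd9, 5 rose and 3 fell on Day3, and 6 fell on Day14, when Cd9 itself was at 0.15 (adjusted p = 0.0412). With either Day0 pair, 5 and 5 rose on Day3, and 2 and 0 rose and 6 and 5 fell on Day14, and Cd9 on Day14 did not pass with replicates 1 and 4 only (0.09, adjusted p = 0.208). Cd53 of leukocytes was highest on Day3, at 2.11, and Cd81 was lower, at -0.29, a call lost with Day0 replicates 1 and 4 only (-0.052, adjusted p = 0.531). The neutrophil list rose on Day3 in 10 of 10 genes (median 7.48) and the monocyte list in 6 of 7 (median 2.12), and 10 and 6 or more of them rose with either Day0 pair. On Day14, 4 neutrophil and 5 monocyte genes fell, against 3 and 4 with Day0 replicates 2 and 3 only and 5 and 6 with replicates 1 and 4 only.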

How the data were processed

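Raw counts per gene symbol were deposited by the authors, together with FPKM values in a second table that the authors made, each with 28 library columns. Each FPKM value was the count divided by a constant gene length and the library total. Per the labels, fastp, R 3.2.0 and mm10 were used, and the aligner, counter, annotation and strandedness are not given in the sources used here. The methods of the study name DESeq2. Total RNA was extracted with TRIzol and the library kit was VAHTS Universal V6.

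The test was that of edgeR 4.0.16, run under R 4.3.3 (TMM, filterByExpr on the day groups, quasi-likelihood test, two-sided) in 1 fit of all 28 libraries, 21 residual degrees of freedom, with Benjamini-Hochberg adjustment over 18107 genes and a threshold of 0.05. FPKM was used for levels. In a second fit, the mean log2 CPM of 9 macrophage genes set each library's scale, and 1 gene of that list is not reported here. On simulated data for Day3 against Day0, edgeR called 98 of 100 genes changed by 1 on the log2 scale, among 17542 genes. The simulation gave all days the same spread between libraries and changed only genes above a count limit. It therefore does not bear on the wider spread of Day0, and its false calls are not reported here. Alternatives used DESeq2 1.42.0, limma 3.58.1 on log2(FPKM + 1), other scalings and filters, a replicate block, left-out libraries, either pair of Day0 libraries alone and no Day0 library.

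Named genes were the members, fixed partners and, per list, the tested genes with the highest and lowest log2 fold change on Day3 and Day14 against Day0. The members and lists were chosen with earlier results of these data known. Limits: the Day0 libraries were not alike, and whole tissue was sequenced. Counts of 36706513 to 40655764 a library bear on counting error only.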

Additional observations from a re-analysis of the deposited data

Results flagged for a closer look

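In 4 of 70 groups of 4 libraries, 1 library lay far from the other 3 (Dixon's criterion), and chance gives about 3.5 such groups, or 1 in 20. Ctsk on Day5 was at 8.91 log2 CPM in replicate 1 and at 9.01 in the other libraries. Ctss on Day10 was at 8.92 in replicate 3 and at 8.76 to 8.79 in the others. Apoe on Day5 was at 11.93 in replicate 4 and at 11.71 to 11.73 in the others. Cd9 on Day12 was at 8.61 in replicate 1 and at 8.56 to 8.57 in the others.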

How the results depend on the processing

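Over the single members and alternatives, 2597 values kept direction and side of the threshold, 163 no longer passed, 64 newly passed and 74 changed direction. Values that follow are against Day0 unless another day is named, are log2 fold changes for single genes and counts for members, with the share of all genes past the same rule, in either direction, in parentheses. The cause was not tested. The fits with 2 of the 4 Day0 libraries and the one without Day0 libraries were chosen after seeing the data, and each of the former assumes that 2 libraries vary as the other days do. Same-numbered libraries did not pair (median r -0.00091 over 84 pairs, 1 over 0.1; 8 of 28 libraries correlated best with their own number).

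With upper quartile in edgeR, the value was -0.073 for Lgals3 on Day3, 0.019 for Lgals3 on Day10 and 0.00070 for Mertk on Day12. With no composition normalization in edgeR, the value was -0.045 for Lgals3 on Day3, 0.029 for Lgals3 on Day10, 2 for members past the criteria of the study on Day12 (7.36%), 0.14 for Mertk on Day12 and 2 for members past the criteria of the study on Day14 (13.6%). Further values were 0.044 for Apoe on Day14 and 4 for members called on Day12 against Day10 (41.8%). With at least 10 counts in every library, the value was -0.0095 for Lgals3 on Day3 and -0.0032 for Lgals3 on Day12. With edgeR on the libraries of the 2 days only, the value was -0.012 for Lgals3 on Day3, 4 for members called on Day14 (57.2%), 2 for members past the criteria of the study on Day14 (12.4%) and 10 for members called on Day10 against Day7 (43.3%). With the Day3 to Day14 libraries only, the value was 10 for members called on Day10 against Day7 (39.4%). With Day0 replicates 1 and 4 only, the value was 1 for members past the criteria of the study on Day3 (18.9%), -0.27 for Lgals3 on Day3, 1 for members past the criteria of the study on Day5 (15.0%), 0.28 for Ctsk on Day5 and 1 for members past the criteria of the study on Day7 (11%). Further values were 0.63 for Ctsk on Day7, 0 for members past the criteria of the study on Day12 (7.96%), -0.065 for Cd68 on Day12, -0.30 for Lgals3 on Day12 and 0.37 for Ctsk on Day12. Further values were -0.17 for Ctss on Day12, -0.090 for Cd9 on Day12, 0 for members past the criteria of the study on Day14 (13.1%), -0.060 for Trem2 on Day14 and -0.12 for Trem2 under macrophage scaling on Day3. Further values were 0.21 for Ctsk under macrophage scaling on Day7, 0.41 for Ctsk under macrophage scaling on Day10, 0.75 for Ctsk under macrophage scaling on Day12 and 0.28 for Ctsk under macrophage scaling on Day14. With Day0 replicates 2 and 3 only, the value was 0.35 for Lgals3 on Day5, 0.26 for Lgals3 on Day7, 0.052 for Mertk on Day7, 0.40 for Lgals3 on Day10 and 0.0053 for Apoe on Day10. Further values were 9 for members called on Day12 (47.1%), 3 for members past the criteria of the study on Day12 (9.54%), 0.15 for Mertk on Day12, 4 for members past the criteria of the study on Day14 (16.3%) and 0.045 for Lgals3 on Day14. Further values were 0.20 for Ctss on Day14 and 0.012 for Apoe on Day14. With limma on log2(FPKM + 1), the value was 0.030 for Ctsk on Day7, 0.077 for Lgals3 on Day10, 7 for members called on Day12 (59.1%), 3 for members past the criteria of the study on Day12 (2.81%) and 0.12 for Mertk on Day12. Further values were 2 for members past the criteria of the study on Day14 (5.45%), 0.042 for Apoe on Day14 and 4 for members called on Day12 against Day10 (50.2%). With limma on log2(FPKM + 0.1), the value was 0.031 for Ctsk on Day7, 0.077 for Lgals3 on Day10, 7 for members called on Day12 (58.8%), 3 for members past the criteria of the study on Day12 (4.49%) and 0.14 for Mertk on Day12. Further values were 3 for members past the criteria of the study on Day14 (8.64%), 0.042 for Apoe on Day14 and 4 for members called on Day12 against Day10 (49.6%). With limma on log2(FPKM + 1) without a filter, the value was 0.030 for Ctsk on Day7, 0.077 for Lgals3 on Day10, 7 for members called on Day12 (31.8%), 3 for members past the criteria of the study on Day12 (1.28%) and 0.12 for Mertk on Day12. Further values were 2 for members past the criteria of the study on Day14 (2.51%), 0.042 for Apoe on Day14 and 3 for members called on Day12 against Day10 (25.9%). With no filter on low counts, the value was 2 for members past the criteria of the study on Day12 (7.95%) and 0.0019 for Mertk on Day12. With DESeq2 on the libraries of the 2 days only, the value was 2 for members past the criteria of the study on Day12 (6.32%), 0.015 for Mertk on Day12, 4 for members called on Day14 (59.2%) and 10 for members called on Day10 against Day7 (44.0%). With a replicate block, the value was 2 for members past the criteria of the study on Day12 (7.36%). With 3 of the 9 macrophage genes only, the value was -0.035 for Cd9 under macrophage scaling on Day10 and 4 for members called under macrophage scaling on Day12 (40.1%).

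Leaving out 1 library at a time gave -0.16 to 0.040 for Apoe on Day14, -0.010 to 0.18 for Cd9 under macrophage scaling on Day10, -0.015 to 0.10 for Cd9 on Day12, -0.46 to 0.063 for Ctsk under macrophage scaling on Day12 and -0.38 to 0.10 for Ctsk on Day7. It gave -0.42 to 0.028 for Ctss on Day14, -0.14 to 0.16 for Lgals3 on Day10, -0.11 to 0.20 for Lgals3 on Day12, -0.11 to 0.24 for Lgals3 on Day3 and -0.20 to 0.12 for Lgals3 on Day5. It gave -0.28 to 0.013 for Lgals3 on Day7, -0.050 to 0.064 for Mertk on Day12, 3 to 7 for members called on Day12 (42.4% to 46.5%), 4 to 6 for members called on Day12 against Day10 (34.2% to 35.7%) and 0 to 3 for members past the criteria of the study on Day12 (7.40% to 8.41%). It gave 1 to 2 for members past the criteria of the study on Day14 (13.7% to 14.7%), 2 to 5 for members past the criteria of the study on Day3 (18.7% to 19.5%), 1 to 4 for members past the criteria of the study on Day5 (13.9% to 14.8%) and 1 to 2 for members past the criteria of the study on Day7 (9.40% to 10.9%).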
